A study of Mus musculus with 18 samples.

Results

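The data concern gene expression in mouse prostate tumour cells grown with fibroblasts, with enzalutamide or without it. Enzalutamide is a drug that occupies the ligand pocket of the androgen receptor and keeps it from acting as a transcription factor. The comparison used 6 of the 18 libraries of the series, chosen by their labels: 3 libraries of T23 adenocarcinoma cells with fibroblasts and enzalutamide (enzalutamide co-culture) and 3 of T23 cells with wild-type fibroblasts and no drug (untreated co-culture). A further 6 libraries, 3 of T23 cells with enzalutamide and 3 of T23 cells alone, served to set the same drug effect beside it in cells without fibroblasts. All 6 groups of the series, 3 libraries each, entered the model that estimated the spread. The series title concerns Sparc in the stroma of castrated prostate and neuroendocrine differentiation of the tumour, so the comparison asks what androgen receptor blockade does to tumour cells that have stroma beside them.

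Labels give no genotype for the T23 cells, no dose and no duration, and do not say whether fibroblasts were kept out of the RNA or whether replicates are separate cultures. P-values therefore measure the spread between these libraries, which may be technical. Sample titles give the fibroblasts of both co-cultures the same name, whereas the descriptions call those of the enzalutamide co-culture human; if the fibroblasts differed, their effect and that of the drug cannot be told apart. Replicates 2 and 3 of the enzalutamide co-culture also belong to a second numbering series in the titles, which replicate 1 and all untreated libraries do not.

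As background, the androgen receptor is a steroid-bound transcription factor on which prostate epithelium and most prostate tumours depend, and its blockade is a mainstay of treatment. Fibroblasts of the prostate also carry the receptor and supply matrix and secreted Wnt, BMP and TGF-beta ligands to the epithelium. Tumours under such treatment can lose luminal character and take on neuroendocrine genes, for which Syp, Chga, Eno2 and Ncam1 are customary markers.

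The 3 enzalutamide co-culture libraries held 20.86, 19.81 and 20.52 M counts, and the 3 untreated ones held 18.81, 24.86 and 19.17 M. A count of 0 allows up to 3 counts, which is between 0.1207 and 0.1595 CPM (counts per M of the library total) in these libraries, for counting error only. Fibroblast marker genes were expressed in all 6 libraries, 12 of 16 with a mean of at least 1 CPM, as in the T23 libraries without fibroblasts, where the same markers summed to 2878 to 3121 CPM with the drug and 3033 to 3075 CPM in T23 cells alone. These markers therefore do not tell added fibroblasts from T23 cells. Of 14 luminal epithelial markers, 10 were under 1 CPM in each of the 6. Leukocyte markers were under 1 CPM for 12 of 14. Levels below are CPM after normalisation between libraries, and genes with an adjusted p under 0.05 in edgeR's quasi-likelihood test are termed called.

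Between enzalutamide and untreated co-cultures 977 of 13600 tested genes were called, which is 7.18% of them, 503 higher (3.7%) and 474 lower (3.49%) with enzalutamide. Most changes were small, with 79 genes past 2-fold, 32 higher and 47 lower, and a median log2 fold change of 0.00 over all tested genes. The ranges of both groups did not overlap for 3504 genes (25.8%), far more than were called. The largest falls among genes with a mean of at least 5 CPM were in Axin2, H19, Gap43 and the Wnt ligand gene Wnt7b. The largest rises were in transcripts of the mitochondrial genome, the matricellular gene Sparcl1, the cholesterol exporter gene Abca1 and the neuropeptide receptor gene Npy1r. Within these bulk libraries fewer cells of a type and less RNA per cell cannot be told apart.

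**Figure D1:**
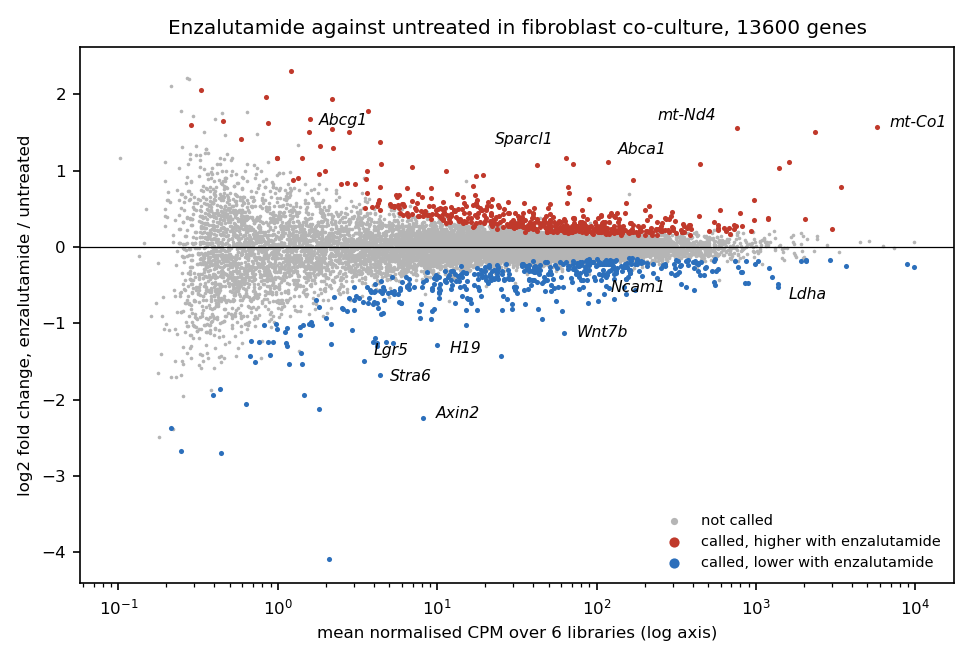
Log2 fold change of enzalutamide over untreated co-culture (vertical) against the mean level over the 6 libraries in normalised CPM (horizontal, log axis), a point per tested gene. Of 13600 points, the 503 red ones are called higher with enzalutamide and the 474 blue ones called lower, and grey ones are not called.

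How many genes were called depended on the libraries. Leaving out enzalutamide replicate 2 gave 550 calls and leaving out untreated replicate 3 gave 637, and 407 genes were called with all libraries and without each of the 6 in turn. With the numbering series as a term, 214 genes were called, 200 of them among the 977. Of 113 named genes that were called, 86 were called without each of the 6 libraries and 53 when the numbering series was a term; none changed direction under any of these. Among genes described below, Ncam1, Krt19, Pgk1, Ankrd37, Npc1, Mmp2, Col1a1, Ifit3, Ifi27, Bmp4, Bmper, the mitochondrial genes and several near the threshold were not called with that term.

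Androgen receptor targets were called in 3 of 12 tested cases, where 7.18% of all genes were. Several classical prostate targets had too few counts: of 20 listed androgen receptor targets 12 were tested, and Tmprss2, Klk1, Pbsn and Msmb were among those that were not. Over the 12, 2 were called higher and 1 lower (1 and 0 when the numbering series was a term), with a median log2 fold change of -0.01. Abcc4, which encodes an exporter of cyclic nucleotides and prostanoids, stood at 45.8, 43.9 and 48.8 CPM with enzalutamide, against 33.1, 32.9 and 35.5 CPM without (log2 0.45 ± 0.06, adjusted p 7.42e-05). The call of Pmepa1 (log2 0.19) was lost when any library but enzalutamide replicate 1 was left out (adjusted p up to 0.174), and that of Ndrg1 (log2 -0.27) without untreated replicate 3 or enzalutamide replicate 1 or 2 (up to 0.119). Fkbp5, a co-chaperone gene and a standard reporter of steroid receptor activity, had log2 -0.13 (adjusted p 0.307) and was not called.

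The largest fall among genes with a mean of at least 5 CPM belonged to a Wnt target gene. When Wnt ligands bind Frizzled receptors, beta-catenin escapes a destruction complex and turns on target genes, several of which feed back on the pathway. Axin2 (ENSMUSG00000000142, chromosome 11, 108920349 to 108950783, plus strand, GRCm38), a scaffold of that destruction complex and a direct target gene, had 2.94, 2.7 and 2.96 CPM in the enzalutamide co-cultures, against 13.3, 14.4 and 12.9 CPM in the untreated ones. Every treated library lay far below every untreated one, a 4.73-fold fall (log2 -2.24 ± 0.15, adjusted p 9.92e-10 by edgeR). Lgr5, the receptor for R-spondins that strengthen Wnt signals, had 2.43, 1.45 and 1.5 CPM with enzalutamide, against 5, 5.26 and 5.06 CPM without, and was 2.83-fold lower (adjusted p 3.23e-05). The gene for the membrane-bound Wnt antagonist Apcdd1 had 28.2, 31.7 and 33.3 CPM with enzalutamide, against 60.9, 53.6 and 64 CPM without (log2 -0.94 ± 0.09, adjusted p 7.33e-07).

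Of 17 listed Wnt feedback and target genes, 10 were tested; 4 were called lower, where 3.49% of all genes were, and 0 higher, with a median log2 of -0.27. The fourth, the receptor gene Fzd7, was only 1.16-fold lower, and its call was lost when any single library other than enzalutamide replicate 3 was left out (adjusted p up to 0.244). Among the 6 not called, Lef1 had log2 0.14 and Tcf7 -0.32; both encode the factors that carry beta-catenin on DNA. Of 8 tested Wnt ligand genes, a family counted after its values were seen, 5 were called lower and 0 higher, with log2 values between -1.51 and 0.77. Wnt7b had 36.4, 38 and 42.3 CPM in the enzalutamide co-cultures, against 86.2, 86.5 and 83.5 CPM in the untreated ones, with tight replicates and a wide gap (log2 -1.13 ± 0.10, adjusted p 8.56e-08). Wnt9a was 1.78-fold lower, at a mean of 10.9 CPM with enzalutamide and 19.4 CPM without (adjusted p 1.67e-05).

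More BMP and TGF-beta genes were called lower than higher. Bone morphogenetic proteins signal through SMAD factors to the Id genes, under the control of secreted antagonists. Bmp2, a ligand, had 2.24, 2.4 and 2.57 CPM in the enzalutamide co-cultures, against 6.09, 6.32 and 5.36 CPM in the untreated ones (log2 -1.30 ± 0.18, adjusted p 3.61e-05). Its antagonist Nog had 3.13, 2.6 and 2.76 CPM with the drug, against 7.5, 7.03 and 5.71 CPM without (log2 -1.25 ± 0.17, adjusted p 4.76e-05). So a ligand and an inhibitor of the same pathway were 2.47-fold and 2.38-fold lower, both at low levels. The ligand gene Bmp4 and the extracellular modulator gene Bmper were called lower at log2 -0.35 and -0.45. Grem1, another secreted antagonist, ran the other way with 822, 835 and 759 CPM in the enzalutamide co-cultures, against 668, 668 and 644 CPM in the untreated ones (log2 0.29 ± 0.05, adjusted p 0.000864). In all, 6 of 17 tested BMP genes were called lower, where 3.49% of all genes were, and 1 higher (median log2 -0.16), Id1 and Smad7 being the other lower ones. The summed level of the list was higher with enzalutamide, at 892 to 966 CPM, against 792 to 832 CPM without. Grem1 made up most of that sum. The count of 6 was 2 with the numbering series as a term, and 4 without untreated replicate 1 or 2 or enzalutamide replicate 1 or 2.

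Genes that TGF-beta and the mechanosensitive YAP factor induce were called lower in 8 of 18 cases and higher in 0 (median log2 -0.20). Over all genes, 3.49% were called lower and 3.7% higher. The summed level of the list was not lower, at 15549 to 16192 CPM with enzalutamide and 15417 to 15760 CPM without. Tgfb3, a TGF-beta ligand, had 82.1, 88.5 and 93.1 CPM in the enzalutamide co-cultures, against 140, 130 and 136 CPM in the untreated ones (log2 -0.62 ± 0.07, adjusted p 1.42e-06). Tgfbi, a secreted matrix protein named for its induction by TGF-beta, was 1.46-fold lower (adjusted p 0.000137). Single libraries moved this count: only 2 members were called without enzalutamide replicate 2, and 5 without enzalutamide replicate 1 or without untreated replicate 1, and 2 when the numbering series was a term.

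**Figure D2:**
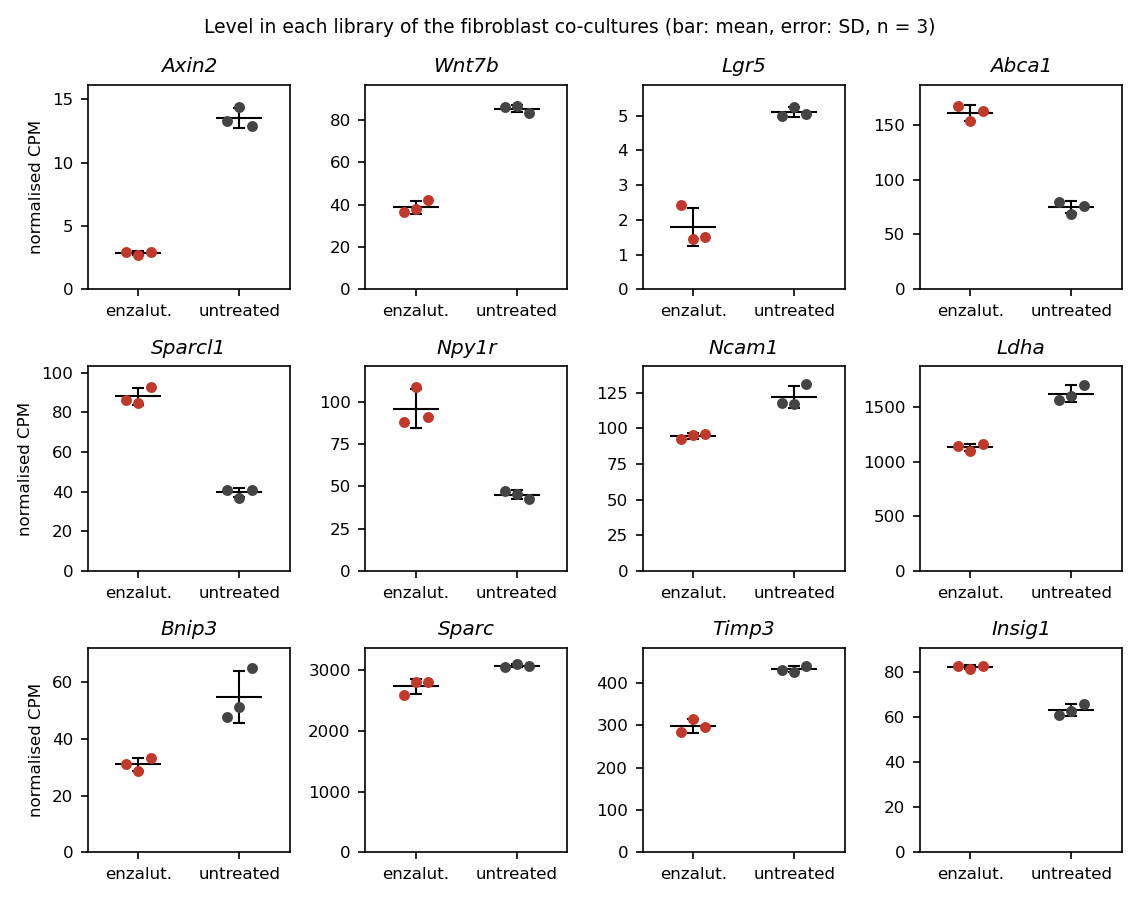
Normalised CPM (vertical axes, each from 0) of 12 genes in each library, with enzalutamide co-culture on the left and untreated co-culture on the right of each panel. Points are libraries, bars means and error bars SD (n = 3). Axin2, Wnt7b and Lgr5 lie lower with enzalutamide and Abca1, Sparcl1 and Npy1r higher, with no overlap, whereas Sparc and Insig1 differ by much less.

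Some genes of cholesterol export and of its synthesis were called higher, 4 of 10 and 7 of 23, and none lower. Cells export cholesterol through ABC transporters under the oxysterol receptors LXR, and make it under the factor SREBP2, which the sterol-dependent anchor protein Insig1 holds back in the endoplasmic reticulum. Abca1 (ENSMUSG00000015243, chromosome 4, 53030787 to 53159895, minus strand, GRCm38), the exporter that loads cholesterol on apolipoprotein A-I, had 167, 153 and 162 CPM in the enzalutamide co-cultures, against 79.6, 68.8 and 75.5 CPM in the untreated ones. That is a 2.15-fold rise in which the lowest treated library was well above the highest untreated one (log2 1.11 ± 0.07, adjusted p 5.39e-10). Abcg1, a second exporter, had 2.2, 2.4 and 2.42 CPM with the drug, against 0.417, 1.1 and 0.86 CPM without, a difference of log2 1.51 ± 0.24 (adjusted p 0.000209). Mylip, a ubiquitin ligase that removes the LDL receptor, was 1.42-fold higher (adjusted p 0.000175).

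Altogether 4 of 10 LXR targets were called higher, where 3.7% of all genes were, with a median log2 of 0.22; 3 were called when the numbering series was a term. Apoe and the receptor gene Nr1h3 were at log2 0.15 and 0.39 and were not called. The rises in synthesis genes were smaller. Insig1 had 82.5, 81.3 and 82.7 CPM with enzalutamide, against 60.7, 62.8 and 65.9 CPM without (log2 0.38 ± 0.05, adjusted p 7.14e-05). Of 23 tested sterol genes, 7 were called higher and 0 lower (median log2 0.14), with 17 positive and 6 negative values. The count of 7 was 4 without enzalutamide replicate 2, and 2 when the numbering series was a term or without both treated libraries of the second series. Later enzymes of the pathway such as Lss (log2 -0.07) and Cyp51 (-0.06) were not called.

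Of 14 fatty acid synthesis genes, 5 were called higher, where 3.7% of all genes were, and 0 lower (median log2 0.13). That count was 3 without untreated replicate 1 or 2, 2 without enzalutamide replicate 2, and 1 when the numbering series was a term or without both second-series libraries. Acaca, which encodes the acetyl-CoA carboxylase that commits carbon to fatty acids, had 154, 150 and 151 CPM with enzalutamide, against 118, 125 and 119 CPM without (log2 0.33 ± 0.05, adjusted p 0.000109). Of 23 lysosomal genes, 8 were called higher and 0 lower (median log2 0.10), 5 without enzalutamide replicate 2 or untreated replicate 1, and 1 when the numbering series was a term. Hexa, a lysosomal hexosaminidase, was 1.34-fold higher (adjusted p 1.31e-05), and Npc1, which carries cholesterol out of lysosomes, 1.22-fold higher (adjusted p 0.000808). Antioxidant genes under the factor NRF2 were called higher in 6 of 25 cases and lower in 0 (median log2 0.13), with 3 calls without enzalutamide replicate 2 or untreated replicate 3, 4 without enzalutamide replicate 3, and 1 when the numbering series was a term or without both second-series libraries. The clearest was Gsta4, a glutathione transferase for lipid aldehydes, with 85.5, 85.5 and 79.7 CPM in the enzalutamide co-cultures, against 48.3, 54.9 and 50.1 CPM in the untreated ones (log2 0.71 ± 0.07, adjusted p 1.42e-06).

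Hypoxia and glycolysis genes held the largest number of falls of any list. Cells short of oxygen stabilise hypoxia-inducible factors, which bind DNA at a core often written ACGTG and raise glycolytic enzymes and some stress genes. Of 26 listed genes, all tested, 19 were called lower and 0 higher, where 3.49% of all genes were called lower, and 25 had a negative log2 fold change (median -0.39). The promoters of 3 of the members with values below are shown because they carry this core. They are the 250 bases before the transcription start from RefSeq on GRCm38.p6, in 5′ to 3′ order of the gene, with ACGTG or its reverse complement CACGT in capitals.
Ldha, chr7:46845554-46845803, plus strand: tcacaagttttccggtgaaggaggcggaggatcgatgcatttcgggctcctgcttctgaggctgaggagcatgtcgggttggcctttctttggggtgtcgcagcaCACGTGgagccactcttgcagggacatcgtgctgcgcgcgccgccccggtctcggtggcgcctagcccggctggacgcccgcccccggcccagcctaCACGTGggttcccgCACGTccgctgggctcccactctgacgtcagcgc
Pgk1, chrX:106186850-106187099, plus strand: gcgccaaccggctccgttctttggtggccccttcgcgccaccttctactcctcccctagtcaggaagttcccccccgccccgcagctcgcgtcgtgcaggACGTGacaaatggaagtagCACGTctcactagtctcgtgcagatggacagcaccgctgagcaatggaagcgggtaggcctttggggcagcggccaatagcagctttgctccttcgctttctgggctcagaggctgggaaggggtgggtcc
Bnip3, chr7:138909507-138909756, minus strand: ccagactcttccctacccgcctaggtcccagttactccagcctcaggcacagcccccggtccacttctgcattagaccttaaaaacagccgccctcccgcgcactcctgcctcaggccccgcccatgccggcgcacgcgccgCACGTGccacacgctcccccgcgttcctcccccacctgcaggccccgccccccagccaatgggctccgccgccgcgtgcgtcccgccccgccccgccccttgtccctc
Overlapping matches, as in CACGTG, were merged, and no other form of the core was searched for. The core occurred on either strand in 13 of the 26 listed promoters (50%) and in 3559 of 20542 promoters of all genes (17.3%). It was present in 9 of the 19 called members and in 4 of the 7 not called. A match describes these letters and is not a binding site. For Ldha the RefSeq start lies 4329 bases from the start of the gene in GENCODE.

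Ldha, which turns pyruvate into lactate and whose promoter above holds 3 capital stretches, had 1140, 1096 and 1159 CPM in the enzalutamide co-cultures, against 1563, 1598 and 1704 CPM in the untreated ones. The groups were far apart for their spread, a 1.43-fold fall (log2 -0.52 ± 0.07, adjusted p 2.79e-05). Pgk1, a glycolytic kinase with 2 stretches, had 357, 312 and 316 CPM with enzalutamide, against 478, 440 and 536 CPM without (log2 -0.56 ± 0.08, adjusted p 0.000101). Bnip3, a mitophagy receptor gene with 1 stretch, had 31.3, 28.7 and 33.2 CPM with enzalutamide, against 47.8, 51.3 and 65.1 CPM without (log2 -0.82 ± 0.12, adjusted p 0.00011). Ankrd37, a small gene that hypoxia-inducible factors activate, fell most in the list, with 10.7, 8.8 and 10.3 CPM in the treated libraries, against 18.2, 18.8 and 23.8 CPM in the untreated ones (2.03-fold, adjusted p 0.0014).

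The fall ran along the glycolytic chain. Called members included Gpi1, Pfkl, Pfkp, Aldoa, Tpi1, Gapdh, Pgam1, Eno1 and Pkm, with log2 values between -0.50 for Eno1 and -0.19 for Pkm. Hexokinase genes at its entry were not called, Hk1 at log2 0.03 and Hk2 at -0.04, nor was the glucose transporter gene Slc2a1 at -0.18 or the angiogenic factor gene Vegfa at -0.08. P4ha2, a collagen prolyl hydroxylase, was 1.49-fold lower (adjusted p 0.000112), and the pyruvate dehydrogenase kinase gene Pdk1 had log2 -0.71. Between 14 and 20 of the 26 were called lower when 1 library was left out, and 8 when the numbering series was a term; Ldha, Bnip3 and P4ha2 were called there, Pgk1 and Ankrd37 were not. Several of these enzymes have many processed pseudogenes, so their counts depend on how shared reads were assigned.

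**Figure D3:**
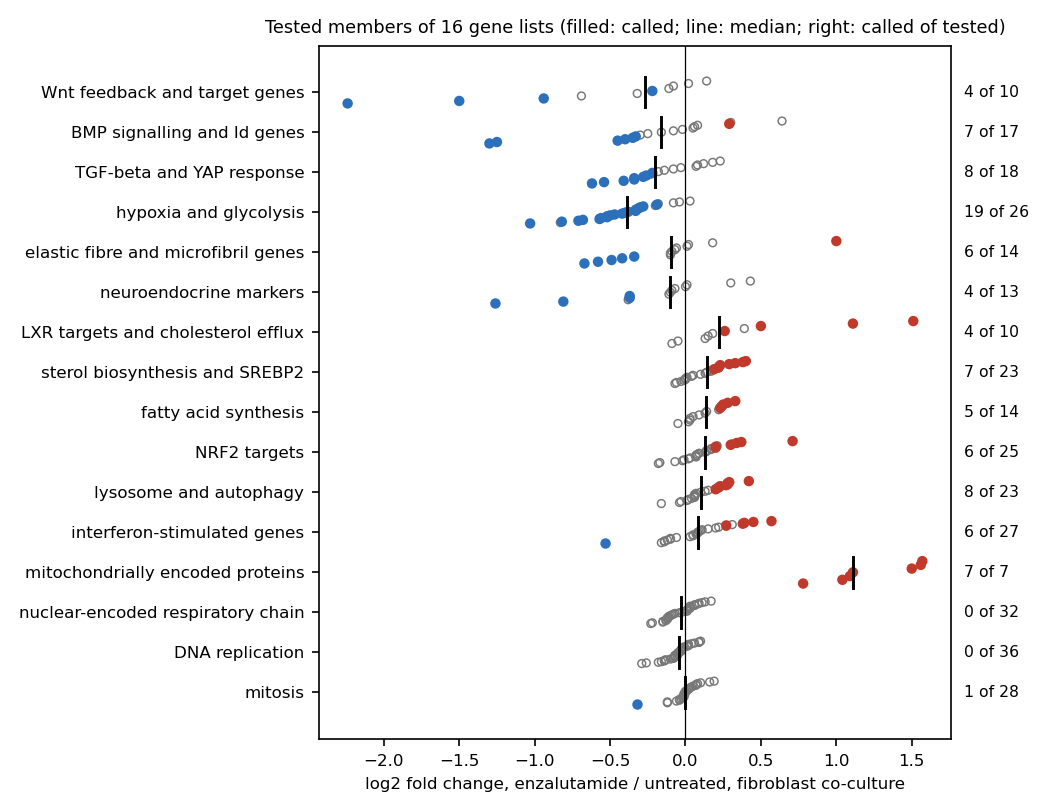
Log2 fold change of enzalutamide over untreated co-culture (horizontal) for the tested members of 16 gene lists (rows). Filled points are called genes, red higher and blue lower with enzalutamide, open points are not called, black ticks are list medians, and the count of called among tested members stands on the right. Hypoxia and glycolysis genes lie left of 0 almost throughout (19 of 26 called), and DNA replication genes cluster at 0 (0 of 36).

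Transcripts of the mitochondrial genome rose, with a strong split by library. That genome encodes subunits of the respiratory chain and its own ribosomal RNA. Those of its genes that received counts took 1.55, 2.71 and 2.7% of counts in the enzalutamide co-cultures. In the untreated ones they took 1.34, 0.857 and 0.853%. Replicates 2 and 3 of the treated group were the high ones, and treated replicate 1 lay just above the highest untreated library; the difference was 1.3 percentage points (exact two-sided permutation p 0.1, the smallest that 3 against 3 libraries allow). Of 13 listed protein genes of that genome, 6 had 0 counts in all 6 libraries and could not be tested. Why these were at 0 was not tested. All 7 tested protein genes were called higher (median log2 1.11). mt-Co1, a subunit of cytochrome oxidase, had 4871, 10184 and 10695 CPM with enzalutamide, against 4170, 2304 and 2171 CPM without (log2 1.57 ± 0.31, adjusted p 0.00189).

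The 7 calls were made without each of the 6 libraries, but 0 of 7 with the numbering series as a term or without both treated libraries of the second series, where mt-Co1 was at log2 0.76 (adjusted p 0.408 and 0.463). Mitochondrial ribosomal RNAs were not called and had close means, 331 CPM with enzalutamide and 314 CPM without for mt-Rnr1, and 385 and 381 CPM for mt-Rnr2, with wide errors (log2 0.08 ± 0.74 and 0.02 ± 0.73). Their spread was estimated over all 18 libraries, with replicate 2 of the enzalutamide cells without fibroblasts among them. In that library ribosomal RNA genes took 28.42% of counts, so the lack of a call says little about these RNAs. The libraries were made by poly(A) capture. Of 32 tested respiratory chain genes of the nucleus, 0 were called by edgeR or DESeq2 and 6 had an unadjusted p under 0.05 (median log2 -0.03). Over all genes, 7.18% were called by edgeR. In cells without fibroblasts, where no library belongs to the second numbering series, all 7 protein genes were also called higher (median log2 1.25). There mt-Co1 had 7125, 12625 and 9290 CPM with enzalutamide, against 2325, 2182 and 3583 CPM without (log2 1.84, adjusted p 0.000334 by edgeR). Treated replicate 2 there is the library rich in ribosomal RNA. The part of the numbering series in the co-culture values was not tested beyond this.

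**Figure D4:**
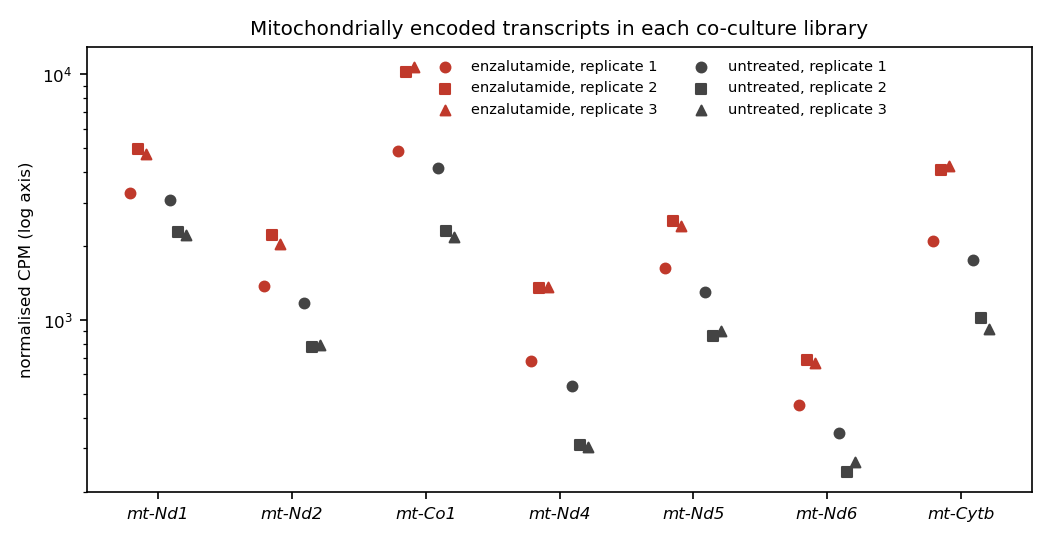
Normalised CPM (log axis) of the 7 tested mitochondrial protein genes in each co-culture library, enzalutamide in red left of untreated in grey, with a marker shape per replicate number. For mt-Co1, enzalutamide replicates 2 and 3 stand at 10184 and 10695 CPM while enzalutamide replicate 1 (4871) lies close to untreated replicate 1 (4170).

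Stress and interferon genes were called in both directions, beside 7.18% of all genes called in either. Of 21 tested genes of the integrated stress response, which the factor ATF4 drives, 3 were called higher and 1 lower (Ddit4, lost without untreated or enzalutamide replicate 2, adjusted p up to 0.15), which became 1 and 0 when the numbering series was a term. Unfolded protein response genes were called in 0 of 21 cases by edgeR and in 4 by DESeq2 (5 at an unadjusted p under 0.05). Hspa5, the main chaperone of the endoplasmic reticulum, was at log2 -0.07 (adjusted p 0.454). Chac1, an ATF4 target that degrades glutathione, had 12.5, 11.2 and 11.9 CPM in the enzalutamide co-cultures, against 8.54, 8.8 and 7.84 CPM in the untreated ones (log2 0.50 ± 0.10, adjusted p 0.002). Interferon-stimulated genes were called higher in 5 of 27 cases and lower in 1 (median log2 0.08), and in 0 of 27 with the numbering series as a term. Ifit3, an antiviral RNA-binding factor gene, led them with 161, 206 and 184 CPM with enzalutamide, against 130, 121 and 120 CPM without (adjusted p 0.000131). Ifi27 ran the other way (log2 -0.53 ± 0.10, adjusted p 0.000946).

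Among immediate-early genes, Egr1, a zinc finger factor induced within minutes by growth factors, had 101, 106 and 120 CPM in the enzalutamide co-cultures, against 76.1, 69.5 and 65.9 CPM in the untreated ones (log2 0.63 ± 0.08, adjusted p 2.07e-05). Fos (log2 -0.23) and Jun (0.09) were not called, though both encode partners of the AP-1 factor that the same signals induce. Of 18 tested immediate-early genes, 3 were called higher, where 3.7% of all genes were, and 0 lower, with 9 positive and 9 negative values. Beside Egr1 these were Myc (log2 0.33) and Egr3 (0.51). Both calls were lost with the numbering series as a term and without several single libraries. Osmr, the oncostatin M receptor gene, was 1.32-fold higher (adjusted p 5.19e-05), while the cytokine Il6 had at most 0.327 CPM in any of the 6 libraries and was not tested. Genes of DNA replication were called in 0 of 36 cases by edgeR or DESeq2, with 3 at an unadjusted p under 0.05 and a median log2 of -0.04. Those of mitosis were called in 1 of 28 cases, the centromeric histone gene Cenpa at log2 -0.32. Over all genes, 7.18% were called by edgeR.

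Matrix genes moved in both directions. Sparc (ENSMUSG00000018593, chromosome 11, 55394500 to 55423183, minus strand, GRCm38), the collagen-binding glycoprotein gene of the series title, had 2586, 2797 and 2800 CPM in the enzalutamide co-cultures, against 3049, 3092 and 3067 CPM in the untreated ones, a 1.13-fold fall without overlap (log2 -0.17 ± 0.05, adjusted p 0.0234). Its call was lost without any 1 of the untreated replicates or without enzalutamide replicate 1 (adjusted p up to 0.11). Sparcl1, its closest relative, rose 2.23-fold to 86.5, 84.9 and 93 CPM with enzalutamide, against 41.1, 36.8 and 40.9 CPM without (adjusted p 5.39e-10). The relatives thus ran opposite ways, though for Sparc by a small amount.

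The type I collagen chain gene Col1a1 had 9081, 8527 and 8964 CPM with enzalutamide, against 11104, 10751 and 10165 CPM without (log2 -0.27 ± 0.05, adjusted p 0.00216), and of 20 collagen chains 3 were called higher and 4 lower, but 0 either way with the numbering series as a term. The count of 3 was 1 without untreated or enzalutamide replicate 1 or 3, and that of 4 was 2 without enzalutamide replicate 2. Among 14 tested microfibril and fibulin genes, 5 were called lower and 1 higher (median log2 -0.09), with 4 positive and 10 negative values. Over all genes, 3.49% were called lower and 3.7% higher. The fibrillin gene Fbn2, among the 5, was not called with the numbering series as a term (log2 -0.44). Fbln2, a fibulin of elastic fibres and basement membranes, was 1.4-fold lower, Mfap5 1.5-fold and Mfap4 1.59-fold lower (adjusted p 2.07e-05, 4.11e-05 and 4.3e-05). The gene called higher was Fbln7, with 14.6, 16.1 and 15.1 CPM in the enzalutamide co-cultures, against 6.93, 8.84 and 6.88 CPM in the untreated ones (adjusted p 1.42e-06).

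Matrix proteases and their inhibitors also moved in both directions. Adamts5 and Adamts1, which cut proteoglycans, were 1.33-fold and 1.28-fold higher (adjusted p 2.79e-05 and 0.0002), and the gelatinase gene Mmp2 was 1.23-fold higher (adjusted p 0.000491). Timp3, the matrix-bound inhibitor of such proteases, had 284, 316 and 297 CPM in the enzalutamide co-cultures, against 431, 427 and 440 CPM in the untreated ones (log2 -0.53 ± 0.06, adjusted p 4.98e-06). In all, 5 of 17 tested protease and inhibitor genes were called higher (3 without enzalutamide replicate 3, and 2 when the numbering series was a term), and 2 lower, the other being Adamts2, a protease that trims procollagen (log2 -0.43). The list had 9 positive and 8 negative values (median log2 0.04), and the inhibitor gene Timp2 was at -0.02 and not called. Over all genes, 3.7% were called higher and 3.49% lower. Dpt, a fibroblast marker and matrix protein gene, was 1.79-fold lower and Pdgfrb, the stromal receptor for platelet-derived growth factor, 1.21-fold higher. With 2 of 12 tested fibroblast markers called each way and a summed level of 3038 to 3171 CPM with enzalutamide and 3010 to 3122 CPM without, the list as a whole had a median log2 of 0.05. Either count was 1 without single libraries, the higher one for all but untreated replicate 3 and the lower one for untreated replicates 1 and 3 and enzalutamide replicates 2 and 3.

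Of 28 listed neuroendocrine markers 13 could be tested. None of these was called higher, where 3.7% of all genes were, so 0 of 13 is near that share. Lower calls numbered 4, where 3.49% of all genes were called lower (median log2 -0.10). Ncam1 (ENSMUSG00000039542, chromosome 9, 49502136 to 49798925, minus strand, GRCm38), a neural adhesion molecule gene, had 92.2, 95.5 and 95.8 CPM in the enzalutamide co-cultures, against 118, 117 and 131 CPM in the untreated ones, all treated libraries below all untreated ones (log2 -0.37 ± 0.07, adjusted p 0.00213). Its call was lost with the numbering series as a term. Gap43, a growth cone protein gene, had 2.52, 2.55 and 4.22 CPM with enzalutamide, against 8.02, 6.48 and 7.84 CPM without (log2 -1.26 ± 0.20, adjusted p 0.000178). The count of 4 was 2 without enzalutamide replicate 1 or 3 or untreated replicate 3, since Mycn and Stmn2 lay near the threshold, and 1 when the numbering series was a term.

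Eno2, a neuronal enolase gene, had 43.7, 38.7 and 44.2 CPM in the enzalutamide co-cultures, against 43.7, 43.3 and 45.8 CPM in the untreated ones, overlapping ranges with no call (adjusted p 0.71). Chga had 0 counts in all 6 libraries, and Syp at most 0.145 CPM with enzalutamide and 0.118 CPM without, too few to test. Of 5 tested luminal markers 1 was called lower, where 3.49% of all genes were, and 0 higher, with 2 positive and 3 negative log2 values. The called marker, the keratin gene Krt19, had 6.12, 5.25 and 7.42 CPM with enzalutamide, against 11.5, 12.1 and 12.8 CPM without (log2 -0.95 ± 0.17, adjusted p 0.00104). The retinoid genes Dhrs3, a retinal reductase, and Stra6, a receptor for retinol uptake, moved apart, 1.9-fold higher and 3.21-fold lower (adjusted p 1.07e-06 and 1.19e-05).

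The same drug effect could be read without fibroblasts, where the libraries are separate from those above. There 1636 genes were called (12%), 930 higher (6.84%) and 706 lower (5.19%). The total was 951, 1024 and 901 without T23 replicate 1, 2 and 3, and 740 with only the groups compared. In replicate 2 of the enzalutamide cells without fibroblasts, ribosomal RNA genes took 28.42% of counts, against at most 0.2058% in any other of those 6 libraries, and 1281 genes were called without it. Of the genes called in co-culture, 596 were called in both settings, which is 61% of the co-culture calls and 36.4% of those without fibroblasts, and 593 had the same direction in both. Without 1 T23 library the shares were 45.2 to 51.4% and 47.5 to 49.1%, with only the groups compared 42.9% and 56.6%, and 56.2% and 42.9% once the replicate high in ribosomal RNA was left out. A further view, free of the second threshold, is that 944 of the 977 (96.6%) had the same sign without fibroblasts, against 70.8% of all tested genes. Over the 977 the log2 fold changes had a Pearson correlation of 0.85, as a description across genes, which are not independent, and of 0.40 over all 13600.

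**Figure D5:**
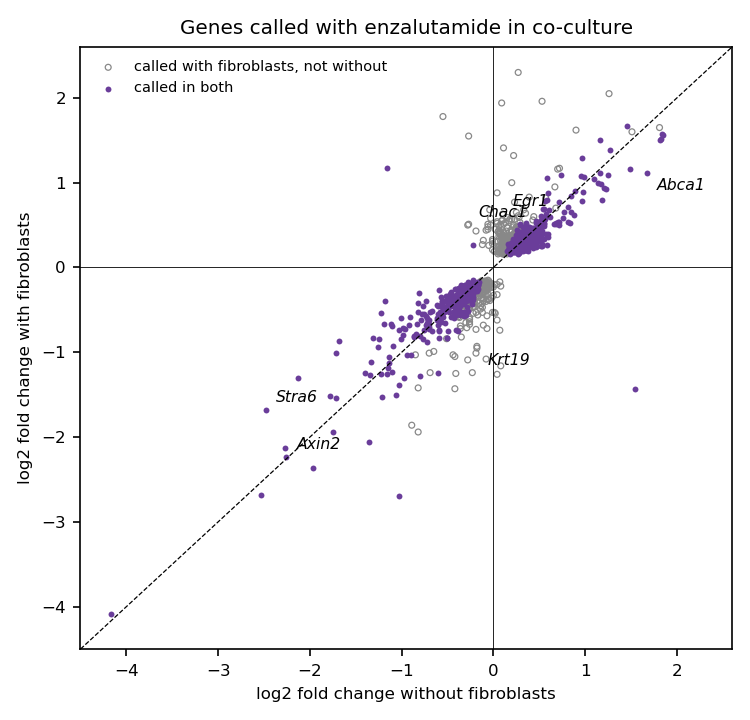
Log2 fold change of enzalutamide with fibroblasts (vertical) against that without fibroblasts (horizontal) for the 977 genes called in co-culture; filled points are called in both settings (596), open points are called with fibroblasts and not without, and the dashed line marks equal change. Most points lie in the lower left and upper right quadrants near the line.

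Axin2 was at log2 -2.24 with fibroblasts and -2.26 without, and Wnt7b at -1.13 and -1.14, nearly the same sizes. The test of the difference between both drug effects called 3 genes (0.0221% of those tested, 755 at an unadjusted p under 0.05), each at adjusted p 0.0496 by edgeR. Abca1 rose less with fibroblasts, since it stood at 249, 256 and 216 CPM in cells with the drug and no fibroblasts, against 80.3, 70 and 76.1 CPM in T23 cells alone (difference of log2 -0.56 ± 0.10). Chac1 differed by log2 0.78 ± 0.14 and Oas2, an interferon-induced synthetase gene, by 0.85 ± 0.15. Oas2 had 15.9, 15.8 and 17.1 CPM in the enzalutamide co-cultures and 13.5, 13.7 and 13.1 CPM in the untreated ones, while without fibroblasts it had 11, 9.52 and 8.54 CPM with the drug and 15.2, 13.7 and 14.6 CPM without it. The 3 calls were lost under most alternatives, and without most single libraries.

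Hypoxia genes had a median log2 of -0.39 with fibroblasts and -0.25 without, with 19 and 10 of 26 called lower. For interferon-stimulated genes the medians were 0.08 with fibroblasts and -0.18 without, with 5 called higher in co-culture and 7 called lower without fibroblasts; Oas2 was the only member whose difference was called. Egr1 was called in co-culture and not without fibroblasts (log2 0.63 and 0.10), as was Krt19 (-0.95 and -0.18), but the difference itself was not called for either (adjusted p 0.161 and 0.759).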

How the data were processed

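Poly(A) RNA of 18 T23 libraries was sequenced with a stranded kit on a NextSeq 550, per the labels' protocols. The authors deposited raw counts per gene, 1 file per library. Per the submitters' processing notes the tools were STAR 2.6.1d, featureCounts 2.0, DESeq2, cutadapt 2.9, bcl2fastq 2.20.0.422 and FastQC 0.11.9, with build GRCm38; the annotation release, strand setting and treatment of shared reads are not given in the sources used here, so overlapping genes and genes with near copies are uncertain. Of 55487 gene IDs, 55227 matched a symbol in GENCODE M21; the others held 0.00552% of counts.

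Genes were kept by filterByExpr (minimum count 10), scaled by TMM and fitted over all 18 libraries with edgeR 4.0.16 (limma 3.58.1, R 4.3.3), quasi-likelihood, a mean per group and 12 residual degrees of freedom; the biological coefficient of variation was 7.03%. Tests are two-sided, p-values Benjamini-Hochberg adjusted over 13600 genes, with called meaning adjusted p under 0.05. The procedure was also run on counts simulated without any effect of the numbering series, so that run does not bear on it. Co-culture replicates spread beyond counting error (chi-square over degrees of freedom 3.73 to 12.1); replicate 2 of the enzalutamide cells without fibroblasts stood apart from its replicates (569 and 577). The alternatives were RLE scaling, no filter, that library, rich in ribosomal RNA (28.42% of counts), left out, a replicate block, the numbering series as a term, only the groups compared, each library left out, and DESeq2 1.42.0; leaving out both second-series libraries was added after the data were seen.

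Named are a fixed set of genes (Sparc, Hspa5, Il6, Syp, Chga, Eno2, Ncam1, Axin2), the 14 called genes with the largest change in each direction (mean of at least 5 CPM, groups not overlapping), and, of each list with at least 3 called members, the 4 with the smallest p in the main direction and the first in the other; other list members are named to show those not called or the rest of a count, and were chosen after their values were seen. Some genes that the rule names have no values given here. Members and lists were chosen with earlier results of these data known. Lists are described by counts and medians, without a test.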

Additional observations from a re-analysis of the deposited data

Results flagged for a closer look

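The enzalutamide effect with fibroblasts minus that without was log2 0.78 for Chac1, -0.56 for Abca1 and 0.85 for Oas2, and the test of the difference called each of them (adjusted p 0.0496 by edgeR). Chac1 had log2 0.50 with fibroblasts and -0.28 without, Oas2 0.27 and -0.58, and Abca1 1.11 and 1.67, so that Abca1 alone of the 3 had the same direction in both settings. All 3 were called by DESeq2 (adjusted p 0.0288, 0.00347 and 0.0125) and with no filter on low counts, and lost their call with RLE scaling (0.0514), with a replicate block (0.096) and once a library with much ribosomal RNA was left out. The difference ranged from 0.72 to 0.85 for Chac1, -0.63 to -0.51 for Abca1 and 0.76 to 0.98 for Oas2 over the alternatives.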

How the results depend on the processing

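The count of genes called in co-culture was 977, and 550 to 924 when 1 library was left out; it was 214 with the numbering series as a term, where replicate 1 of the enzalutamide co-culture carries the contrast, and 190 without both treated libraries of the second series, which leaves 1 treated library that is assumed to vary like the other groups. RLE scaling gave 977, no filter 1074, only the groups compared 1105, DESeq2 1113 and the fit without the library rich in ribosomal RNA 1423. Named genes that were called were also called with RLE scaling in 113 of 113 cases, with DESeq2 in 112, with the replicate block in 110 and in 53 when the numbering series was a term, and none turned direction. For the difference between both drug effects the count was 3, and 0 with RLE scaling, the replicate block, the numbering series, only the groups compared, or without the library rich in ribosomal RNA or both second-series libraries; it was 99 with no filter and 0 to 12 with 1 library left out. Without fibroblasts the count was 1636, 740 with only the groups compared and 901 to 1710 with 1 library left out. To look for pairing by number, each library was taken as its deviation from its group mean over the tested genes. Between same-number libraries of both co-cultures these deviations had correlations of -0.00928, 0.00436 and -0.0638, so they showed no pairing by number. Such values cannot tell whether replicates shared a culture or a day. The replicate block gave 921 calls, 899 of them shared with the unblocked fit. The cause of these shifts was not tested.

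Of 28 listed neuroendocrine markers 15 had too few counts to test at this depth, 4 of them at 0 in all 6 libraries. Each group has 3 libraries, dose and duration are not stated, and the labels disagree on the fibroblasts of the enzalutamide co-culture.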

Other observations

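Several genes with larger changes stood below the level required for naming and were chosen after their values were seen. Gjb2, which encodes the gap junction protein connexin 26, had 0.0467, 0.15 and 0.485 CPM in the enzalutamide co-cultures, against 4.64, 3.5 and 3.74 CPM in the untreated ones (log2 -4.09 ± 0.47, adjusted p 4.98e-06 by edgeR). Ccn5, a secreted matricellular gene, had 0.514, 0.8 and 0.727 CPM with enzalutamide, against 3.33, 3.65 and 1.87 CPM without (log2 -2.13 ± 0.28, adjusted p 3.23e-05). Penk, the proenkephalin gene, had 0.654, 0.7 and 0.824 CPM with enzalutamide, against 2.24, 2.12 and 1.97 CPM without (log2 -1.53 ± 0.30, adjusted p 0.00209). In these 3 genes the groups did not overlap.

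Some processed pseudogenes were high in the treated libraries of the second numbering series and at the untreated level in treated replicate 1. Rps24-ps3 had 1.45, 9.2 and 6.5 CPM in the enzalutamide co-cultures, against 1.82, 1.45 and 1.72 CPM in the untreated ones. Rpl18-ps1 had 0.888, 3.75 and 5.19 CPM with enzalutamide, against 1.2, 0.864 and 1.31 CPM without. The part of the numbering series in these values was not tested.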
